A study of Nothobranchius furzeri with 8 samples.

Results

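The early growth response (EGR) genes EGR1 (Nfu_g_1_004681), EGR2 (Nfu_g_1_012156) and EGR4 (Nfu_g_1_012693) were examined in whole brains of the turquoise killifish Nothobranchius furzeri. These 3 of the 26739 genes in the count table were picked because their levels in wild and captive fish were known, so that every value of the members between those groups is a description and carries no test. The brains came from 4 wild males of population A41 (A41_A_3m, A41_A_5m, A41_A_7m and A41_A_11m, called fish 3, 5, 7 and 11 below), 39 days post hatch, and from 4 captive males of the strain MZM-0410 (MZM_0410_124, MZM_0410_125, MZM_0410_126 and MZM_0410_127, always given in this order), 35 days post hatch according to the sample labels. Wild fish were netted in ponds in the early morning and dissected on the spot, and their brains were kept in RNAlater before freezing. Captive fish were housed singly, fed on Chironomus larvae and killed fasted in the morning, and their brains were frozen on dry ice at once. The integrity of the extracted RNA was lower in every wild fish than in any captive fish. Origin, genetic background, age, capture, food, storage and RNA integrity therefore changed together between the groups and cannot be told apart. Each library is 1 fish, and the libraries were made with a directional kit from poly(A) RNA and sequenced together.

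EGR proteins are zinc-finger transcription factors that bind a GC-rich motif. In mammals their genes belong to the immediate early class: neuronal activity, growth factors and stress switch them on within minutes, through kinase cascades that act on serum response factor and CREB, without any need for new protein. EGR1 is widely used in fish and mammals as a marker of recently active neurons, EGR2 is also needed for hindbrain patterning and for myelination by Schwann cells, and EGR4 is expressed in the nervous system and the male germ line. The remaining family gene, EGR3, takes part in synaptic plasticity and in muscle spindle development in mammals. NAB1 and NAB2 are corepressors that bind EGR proteins, and NAB2 is itself induced by EGR factors in mammalian cells.

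Library totals were 13923243 to 14541119 counts in wild fish and 11814586 to 14393377 in captive fish. No 2 libraries of a group were identical, and each pair differed by more than counting error (chi-square per gene 7.44 to 16.3). Levels below are library-normalised counts (CPM) scaled by the trimmed mean of M-values (TMM), with the 95% exact Poisson interval of a single library where one is given, and such intervals cover counting error only. Of the 19517 genes that had a minimum of 1 count in all libraries, 41.6% differed between wild and captive fish by the quasi-likelihood F-test of edgeR at an adjusted p under 0.05, with 19.8% higher and 21.8% lower in wild fish. The median log2 difference of all genes tested was 0.04. All log2 differences below are wild minus captive.

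EGR1 was the most abundant of the members. It had 4114, 3483, 2676 and 1725 counts in wild fish 3, 5, 7 and 11, and 646, 898, 733 and 926 counts in the captive fish. These counts correspond to 291, 243, 184 and 119 CPM in the wild fish and to 55.6, 68.6, 59.0 and 64.7 CPM in the captive fish. Every wild brain lay above every captive brain, and the wild brains were spread over a 2.43-fold range while the captive ones stayed within 1.23-fold. The means were 209 ± 74.3 CPM (SD, n = 4) in the wild group and 62.0 ± 5.76 CPM (SD, n = 4) in captive fish, a log2 difference of 1.76 (SE 0.23). The lowest wild fish, 11, stood 1.74-fold above the highest captive fish, MZM_0410_125. In bulk brain, more cells that express a gene and more transcript in each of those cells cannot be told apart.

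EGR2 was the scarcest member and had the widest separation between the groups. Wild fish 3, 5, 7 and 11 were at 16.1, 13.3, 16.0 and 8.80 CPM, from 190 to 233 counts in fish 3, 5 and 7 and fewer in fish 11. The captive fish gave 4, 28, 23 and 21 counts, or 0.345, 2.14, 1.85 and 1.47 CPM. The groups did not overlap, and wild fish 11, again the lowest of its group, was 4.12-fold above captive fish MZM_0410_125. Means were 13.5 ± 3.41 CPM (SD, n = 4) and 1.45 ± 0.787 CPM (SD, n = 4), and the log2 difference was 3.20 (SE 0.37). Captive fish MZM_0410_124 had only 4 reads, and its interval of 0.0939 to 0.882 CPM ended just below that of MZM_0410_127, the next captive fish, which began at 0.908 CPM. Without captive fish MZM_0410_124 the log2 difference was 2.88 (SE 0.27). The gene bears the symbol EGR2A in the source of the gene names, and reads of a second EGR2 copy, if there is one, would not be in this row.

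EGR4 had 2160, 1720, 1859 and 616 counts in wild fish 3, 5, 7 and 11, and 392, 496, 354 and 505 counts in the captive fish. On the CPM scale the wild fish were at 153, 120, 128 and 42.7 and the captive fish at 33.8, 37.9, 28.5 and 35.3. Fish 3, 5 and 7 thus formed a high cluster, whereas fish 11 was close to the captive brains. Fish 11 exceeded the highest captive fish, MZM_0410_125, by only 1.13-fold, and the counting intervals of these fish (39.4 to 46.2 CPM and 34.6 to 41.3 CPM) overlapped. Group means were 111 ± 47.5 CPM (SD, n = 4) and 33.9 ± 3.95 CPM (SD, n = 4), with a log2 difference of 1.71 (SE 0.32). The order of groups held for each member, and in 19.2% of all genes tested every wild fish was above every captive fish. A second protein carries the symbol EGR4 in the gene name tables but is paired there with no gene of the count table, so only the row above is described.

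**Figure D1:**
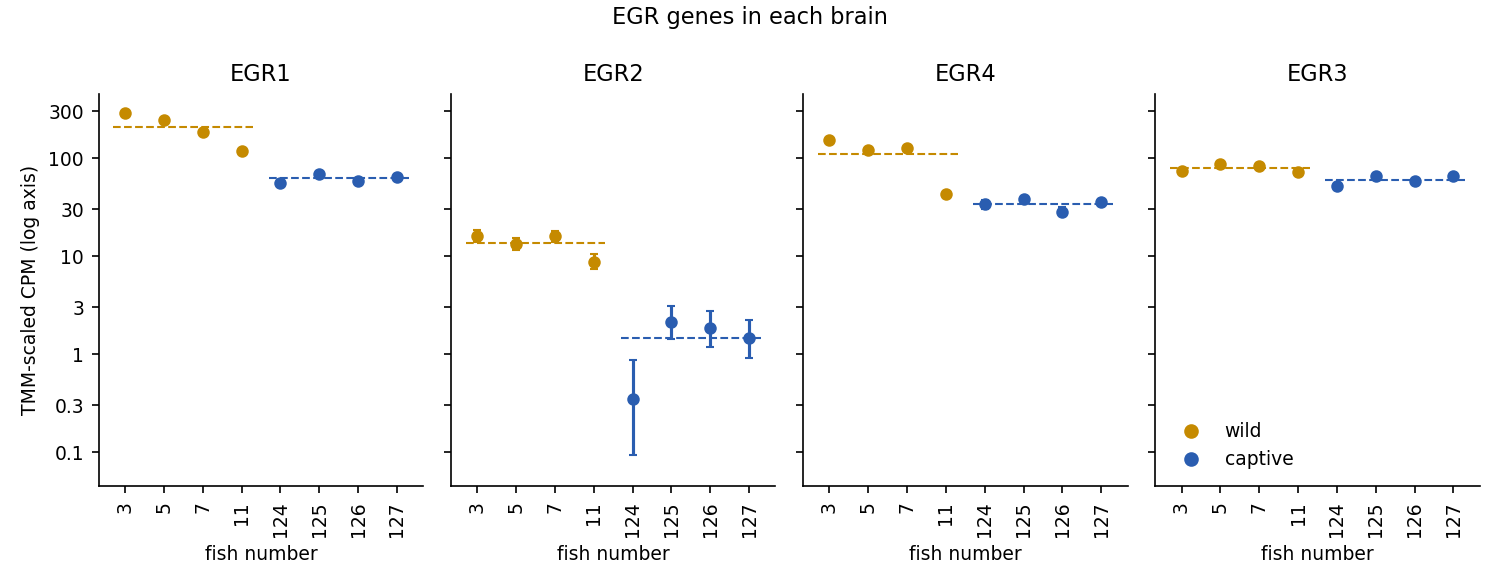
TMM-scaled CPM (log axis, shared by the panels) of EGR1, EGR2, EGR4 and EGR3 in each wild (gold) and captive (blue) brain; bars are 95% Poisson counting intervals and dashed lines group means. Wild fish 11 is the lowest wild brain in every panel, at 42.7 CPM for EGR4 beside 28.5 to 37.9 CPM in captive fish.

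Among all genes tested, ranked from the highest log2 difference down, EGR2 was at place 16, EGR1 at place 100 and EGR4 at place 110. A log2 difference of at least 1 was seen in 2.97% of genes. The 3 members were chosen for these differences, and the ranks only state how far out they lie.

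Per unit of transcript length the family was dominated by EGR1 in both groups. On the deposited RPKM scale (reads normalised to transcript length and library total) EGR1 was at 138 ± 49.8 in wild and 39.9 ± 3.66 in captive fish (SD, n = 4 each), from a transcript length of 1536 nucleotides. EGR4 (2986 nucleotides) was at 37.5 ± 16.2 and 11.2 ± 1.25 RPKM, EGR3 (5644 nucleotides) at 14.2 ± 1.34 and 10.6 ± 1.14 RPKM, and EGR2 (1797 nucleotides) at 7.60 ± 1.93 and 0.799 ± 0.433 RPKM. The order of mean levels was EGR1, EGR4, EGR3 and EGR2 in both groups, but EGR4 and EGR3 were neighbours within their spread in captive fish (9.53 to 12.4 against 9.01 to 11.5 RPKM) and overlapped in wild fish through fish 11, where EGR4 was at 14.3 and EGR3 at 12.9 RPKM. In wild fish EGR1 exceeded 98.1% of all genes in mean RPKM, EGR4 91.9% and EGR2 65.8%. In captive fish these shares were 92.9% for EGR1, 73.0% for EGR4 and 36.4% for EGR2.

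The proportions between the family genes were not the same in the 2 groups. The 4 genes together reached 267, 226, 186 and 110 RPKM in wild fish 3, 5, 7 and 11, and 55.9 to 68.8 RPKM in captive fish. EGR2 made up 3.33% to 4.78% of that sum in wild fish and 0.337% to 1.74% in captive fish. EGR3 made up 4.97% to 11.7% and 16.1% to 17.5%, so that neither share overlapped between the groups. EGR1, EGR2 and EGR4 were chosen on their levels in these groups and EGR3 was not, although its name came only through a table selected in part on these libraries. The shares therefore follow in part from that choice and are a description. The ratio of EGR4 to EGR1 was 0.266 ± 0.0711 in wild and 0.281 ± 0.0262 in captive fish (SD, n = 4 each), a difference smaller than the spread between the fish. Within the wild group this ratio was 0.270, 0.254, 0.357 and 0.184 in fish 3, 5, 7 and 11, so EGR4 and EGR1 did not move in step in every brain. The ratio of EGR2 to EGR1 was 0.0466 to 0.0744 in wild fish and 0.00529 to 0.0268 in captive fish.

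**Figure D2:**
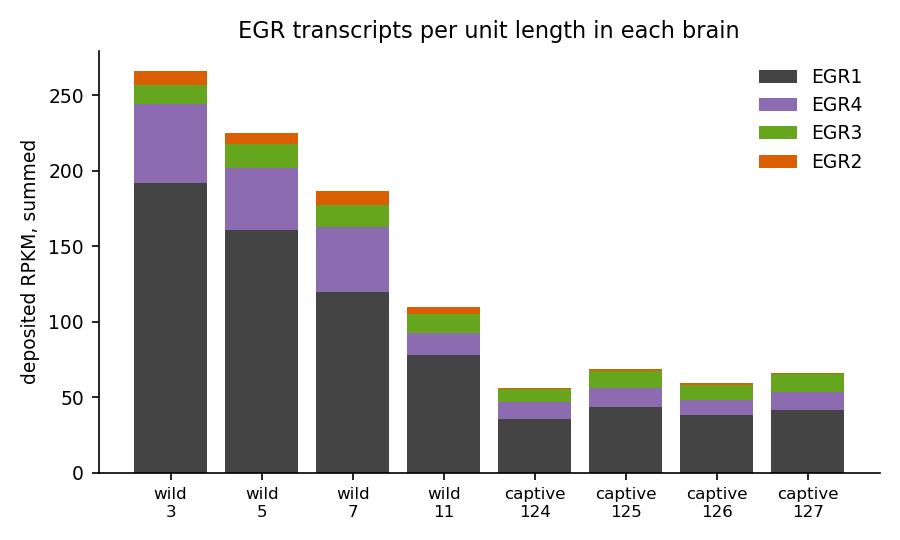
Deposited RPKM of EGR1, EGR4, EGR3 and EGR2, stacked for each brain. The summed level is 110 to 267 RPKM in the 4 wild brains and 55.9 to 68.8 RPKM in the 4 captive brains, and EGR1 (dark) is the largest part of every bar.

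The spread of the members inside the wild group was wide. The coefficient of variation over the 4 wild fish was 35.5% for EGR1 and 42.9% for EGR4, where counting alone would give 1.93% and 2.83%. Among genes within 2-fold of the same mean count in wild fish, 99.0% had a smaller SD of log2 CPM than EGR1 and 99.7% a smaller one than EGR4. In captive fish the same genes varied by 9.29% and 11.7%, and 71.1% and 76.0% of genes of like count had a smaller SD. EGR2 was also spread in wild fish, with a coefficient of variation of 25.2%, and 91.5% of genes of like count had a smaller SD. Unlike the others it varied more in captive fish, by 54.2%. Counting error taken at the observed reads of each captive fish would give 30.7%, a value that the 4 reads of MZM_0410_124 raise. There 96.0% of genes of like count had a smaller SD, and the value includes MZM_0410_124 with 4 reads. The median SD of log2 CPM over all genes tested was 0.176 in wild and 0.160 in captive fish, so the wild libraries as a whole were hardly more spread than the captive ones.

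Much of the wild spread came from fish 11. Its level was 49.9% of the mean of the other wild fish for EGR1, 58.2% for EGR2 and 32.0% for EGR4. It was the lowest wild fish for each of them, as it was for 26.4% of all genes tested. Only 0.384% of genes tested were as low or lower in fish 11 relative to the other wild fish as EGR4 was, against 1.85% for EGR1 and 3.32% for EGR2. Relative to the captive mean, fish 11 still stood at 1.93-fold for EGR1 and 6.07-fold for EGR2 but at 1.26-fold for EGR4. Without fish 11 the wild means were 239 ± 53.7, 15.1 ± 1.59 and 134 ± 17.1 CPM (SD, n = 3) for EGR1, EGR2 and EGR4, and the coefficients of variation fell to 22.4%, 10.5% and 12.8%. The log2 differences were then 1.95, 3.36 and 1.98.

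The remaining wild fish followed no single order. EGR1 decreased from fish 3 through fish 5 to fish 7, with counting intervals that did not overlap (282 to 300, 235 to 252 and 177 to 191 CPM). EGR2 was level in fish 3 and 7, and the interval of fish 5, 11.5 to 15.3 CPM, overlapped theirs. EGR4 was highest in fish 3, and fish 7 and 5 had overlapping intervals. Fish 3 was thus the highest wild brain for all members, which was so for 23.5% of all genes, although for EGR2 fish 3 and 7 differed by less than counting error. Among captive fish, MZM_0410_125 was the highest for each member, as for 25.6% of all genes, and MZM_0410_124 was the lowest for EGR1 and EGR2, as for 27.2% of all genes.

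EGR3 was the family gene outside the choice of the members, but its name came only through a table selected in part on these libraries. Its test is therefore not independent of these data. It was at 73.6, 87.4, 83.5 and 72.8 CPM in wild fish 3, 5, 7 and 11, and at 51.8, 65.3, 58.6 and 65.1 CPM in the captive fish. All wild brains were above all captive ones, and fish 11 was the lowest wild brain, but level with fish 3 within counting error. EGR3 was higher in wild fish by 0.40 on the log2 scale (SE 0.09, edgeR adjusted p = 0.0062). Its coefficient of variation in wild fish was 9.16%, and its level in fish 11 was 89.3% of the mean of the other wild fish.

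The corepressors differed from the factors in their order over the fish. NAB2 was at 27.1, 47.8, 42.4 and 62.3 CPM in wild fish 3, 5, 7 and 11 and at 21.4, 30.9, 28.1 and 26.6 CPM in the captive fish. It was higher in wild fish by 0.75 on the log2 scale (SE 0.22, edgeR adjusted p = 0.021), although fish 3 lay among the captive fish, and without captive fish MZM_0410_124 the adjusted p was 0.057. NAB1 ranged from 10.8 CPM in fish 3 to 18.2 CPM in fish 11 among the wild and from 18.1 to 20.8 CPM among the captive fish, with a log2 difference of -0.37 (SE 0.14) that did not pass the test (edgeR adjusted p = 0.067). For both corepressors fish 3 was the lowest and fish 11 the highest wild brain, the opposite ends of the order seen for EGR1, EGR2 and EGR4. These ends were not particular to the corepressors, as JUND, SST, SCG2 and CDK5R1 (Nfu_g_1_019513), described below, had them too. Their share over all genes was not computed. NAB1 did pass without wild fish 11 (edgeR adjusted p = 0.025).

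Other regulators of the immediate early class were also mostly higher in wild brains. Their list, like the lists below, was chosen with earlier results of these data known. Its shares and tests are therefore not independent of these data. Of 32 symbols listed, 20 were found, as 22 genes. Of these, 18 were higher in wild fish (81.8%, beside 19.8% of all genes tested and 32.5% of the genes with a name), none was lower and 4 did not pass the test, and the median log2 difference was 0.79. The names of 7 of the 18 came only through a table selected in part on these libraries, and among the 15 genes named otherwise 11 were higher. FOS, JUNB (Nfu_g_1_019346) and BHLHE40, described below, are among these 7. FOS, the partner of JUN in the AP-1 complex, was at 137, 99.2, 86.5 and 44.1 CPM in wild fish 3, 5, 7 and 11 and at 9.90 to 12.3 CPM in captive fish (log2 difference 3.02, SE 0.30, edgeR adjusted p = 3.8e-05). NPAS4, a neuron-specific factor induced by calcium entry, was at 308, 343, 323 and 242 CPM and at 55.5 to 78.8 CPM (2.14, SE 0.14, adjusted p = 2.5e-06). Both shared with the EGR genes the low value in fish 11.

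JUNB (Nfu_g_1_019346), another AP-1 subunit, was at 174, 111, 132 and 108 CPM in the wild brains and at 40.8 to 44.7 CPM in the captive ones (log2 difference 1.63, SE 0.14, edgeR adjusted p = 1.5e-05). JUND, an AP-1 subunit that is expressed more steadily, was at 84.7, 108, 99.5 and 117 CPM and at 46.2 to 54.5 CPM (1.07, SE 0.10, adjusted p = 2.5e-05), with fish 11 the highest wild brain. BHLHE40, a clock-linked repressor, was at 387 ± 19.0 CPM and 260 ± 13.2 CPM (SD, n = 4 each; 0.58, SE 0.06, adjusted p = 3.8e-05). The low place of fish 11 was therefore not general in the class. Fish 11 was the lowest wild fish for 10 of the 22 genes, a larger share than the 26.4% of all genes tested. The median log2 level of the list above the captive mean was nevertheless highest in fish 11, at 1.02. It was 0.73, 0.71 and 0.81 in fish 3, 5 and 7. Fish 11 was below the mean of the other wild fish for 12 of the 22 genes (54.5%), beside 48.7% of all genes tested. The median of its log2 difference from the other wild fish over the list was -0.15, beside 0.01 over all genes tested. For EGR1, EGR2 and EGR4 this difference was -0.98, -0.76 and -1.63.

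**Figure D3:**
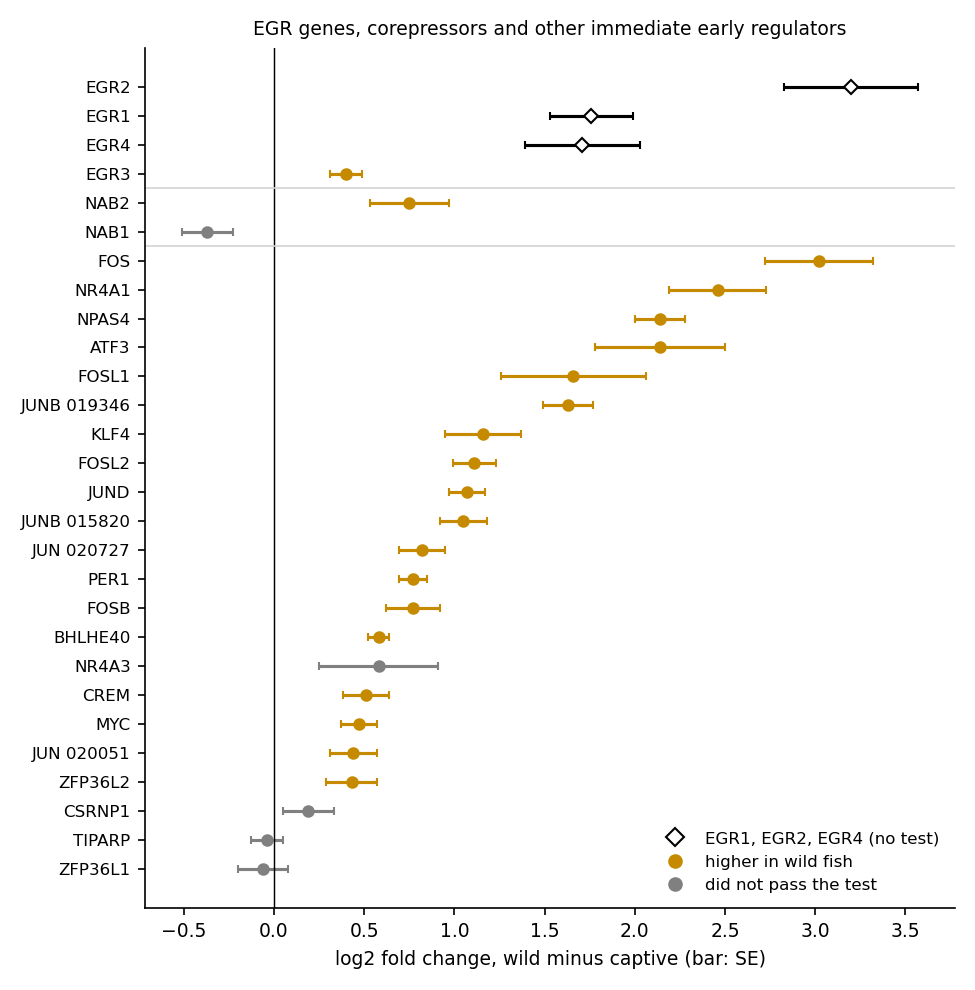
Log2 fold change between wild and captive fish (points, edgeR) with its SE (bars) for the EGR genes, the NAB corepressors and 22 genes of other immediate early regulators; open diamonds are EGR1, EGR2 and EGR4, which carry no test. Gold marks the genes that were higher in wild fish and grey those that did not pass, and FOS, at 3.02, has the largest value of the 22 regulators, beside 3.20 for EGR2.

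The genes with the most similar profile were sought by the root-mean-square difference of log2 CPM over the 8 fish, with each gene set to 0 at its captive mean, among 6914 genes that bear a name and average 50 counts or more. EGR1 and EGR4 were each the nearest gene of the other, at a difference of 0.27. The members were chosen on their levels in these groups, which the measure takes in, so nearness among them follows in part from that choice. EGR1 was followed by JUNB (0.28), SERPINH1 (0.28), TNNT3 (0.33) and PPP1R3C (0.35), where the median over all candidates was 1.24. SERPINH1 is a collagen chaperone induced by heat shock, TNNT3 is troponin T of fast muscle and PPP1R3C directs protein phosphatase 1 to glycogen. EGR4 was followed by PPP1R3C (0.37), TNNT3 (0.38), JUNB (0.42) and SERPINH1 (0.44), beside a median of 1.22. The same 4 genes besides EGR1 and EGR4 thus stood in both lists, and the libraries and the captive mean are shared by all these comparisons. The names of EGR1, JUNB and TNNT3 came only through the table selected in part on these libraries.

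No gene lay as near to EGR2 as EGR1 and EGR4 lay to each other. Its nearest gene was FOS at 0.64, followed by DNAJB5, a heat shock cochaperone, at 0.94, NPAS4 at 0.95, EGR1 at 1.27 and SIMC1 at 1.33, where the median over all candidates was 2.40. EGR1 and EGR4 were at 1.27 and 1.39 from EGR2, the fourth and the eighth of its order. EGR2 was 3.55, 3.28, 3.55 and 2.70 above its captive mean in wild fish 3, 5, 7 and 11, and FOS was 3.59, 3.13, 2.93 and 1.96 above its own. The measure takes in the level of the wild fish as well as their order, so it describes profiles near in size and not only in shape. It also takes in the captive fish, where EGR2 had 4, 28, 23 and 21 reads. Captive fish MZM_0410_124 was at -1.49 from the captive mean for EGR2 and at -0.18 for FOS. How far counting error in the captive fish adds to the differences from EGR2 was not tested.

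**Figure D4:**
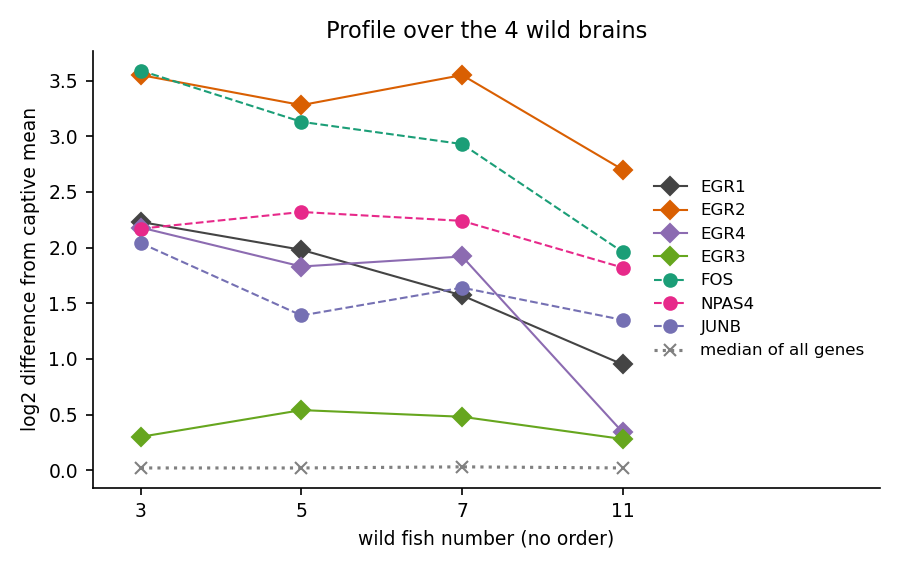
Log2 difference from the captive mean in wild fish 3, 5, 7 and 11 for the EGR genes (diamonds), FOS, NPAS4 and JUNB (circles) and the median of all genes tested (crosses); lines join the values of a gene and imply no order of the fish. EGR4 is at 1.83 to 2.18 in fish 3, 5 and 7 and at 0.34 in fish 11, and the median of all genes is at 0.02 to 0.03.

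Effector genes that neuronal activity induces in mammals were called in both directions. Of 22 genes tested, 10 were higher and 3 lower in wild fish, and 9 did not pass (median log2 difference 0.18). Without the genes named only through the selected table it was 3 higher and 3 lower of 15. This share is close in each direction to the 19.8% and 21.8% of all genes tested. The 32.5% and 33.4% of named genes include genes named only through that table, and the share without them was not computed. DUSP5, a phosphatase of ERK kinases, was 1.13 higher (SE 0.11, edgeR adjusted p = 2.7e-05), GADD45B (Nfu_g_1_002546), a stress-induced gene linked to DNA demethylation, 1.26 higher (SE 0.19, adjusted p = 6.7e-04), RASD1, a Ras-related protein induced by dexamethasone, 0.90 higher (SE 0.13, adjusted p = 3.8e-04), and the neuropeptide gene SST 0.71 higher (SE 0.11, adjusted p = 6.0e-04). Of these, GADD45B (Nfu_g_1_002546), RASD1 and SST were named only through the selected table. A second, scarcer GADD45B copy did not pass (0.16, SE 0.50, edgeR adjusted p = 0.82). GADD45A fell by 0.54 (SE 0.14, adjusted p = 0.013), and both copies of the neuropeptide precursor VGF were lower, by log2 differences of -1.54 (SE 0.23, adjusted p = 5.7e-04) and -0.62 (SE 0.14, adjusted p = 0.0054). SCG2, the secretogranin with the highest count of the list, did not pass (-0.11, SE 0.10, adjusted p = 0.39).

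Transcripts of the signalling chain that acts on EGR promoters were mostly lower in wild fish. Of 26 genes, 20 were lower and 3 higher, with a median log2 difference of -0.38, while 21.8% of all genes tested and 33.4% of named genes were lower. Of the 9 genes named without the selected table, 5 were lower and 1 was higher. CREBBP (Nfu_g_1_022972), a coactivator of CREB, averaged 74.8 ± 4.86 CPM in wild brains against 152 ± 7.48 CPM in captive brains (-1.02, SE 0.06, edgeR adjusted p = 1.9e-06). RASGRF1 (Nfu_g_1_003815), which links calcium to Ras, was at 23.4 ± 4.29 and 87.6 ± 9.75 CPM (-1.91, SE 0.13, adjusted p = 3.6e-06). The other copies of CREBBP and RASGRF1 were lower as well, by smaller log2 differences of -0.28 to -0.51. A pair of copies of the kinase subunit CAMK2B were lower by log2 differences of -0.92 (SE 0.10, adjusted p = 5.6e-05) and -0.44 (SE 0.05, adjusted p = 1.2e-04). SOS1, an activator of Ras, was higher by 0.29 (SE 0.05, adjusted p = 0.0018), and so were MKL2 (Nfu_g_1_022947), a coactivator of serum response factor (0.28, SE 0.06, adjusted p = 0.0032), and ELK3, a ternary complex factor (0.31, SE 0.10, adjusted p = 0.035). A second MKL2 copy (Nfu_g_1_023089) was lower (-0.29, SE 0.07, edgeR adjusted p = 0.0082). The call of ELK3 was lost without any of wild fish 3, 7 and 11 or captive fish MZM_0410_124, MZM_0410_126 and MZM_0410_127 (edgeR adjusted p = 0.061 to 0.097).

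Genes reported in mammals as targets of EGR factors were called lower in wild brains more often than higher, in a background where 21.8% of all genes tested and 33.4% of named genes were lower. Of 20 genes tested, 13 were lower, 2 were higher and 5 did not pass (median log2 difference -0.52), and without those named only through the selected table it was 8 lower and 2 higher of 15. SYN1, which encodes the vesicle protein synapsin 1, averaged 43.3 ± 7.16 CPM in wild brains against 172 ± 8.01 CPM in captive brains (-1.99, SE 0.11, edgeR adjusted p = 8.6e-07). A copy of CDK5R1 (Nfu_g_1_019513), the activator of CDK5, was lower by a log2 difference of -1.07 (SE 0.10, adjusted p = 2.2e-05), and a copy of the DNA methyltransferase DNMT3A (Nfu_g_1_019101) by one of -1.68 (SE 0.13, adjusted p = 9.3e-06). The more abundant copies of both did not pass: CDK5R1 (Nfu_g_1_023437) was at 108 ± 8.72 and 99.1 ± 4.19 CPM (0.12, SE 0.07, edgeR adjusted p = 0.18) and DNMT3A (Nfu_g_1_021728) at 108 ± 7.19 and 113 ± 3.26 CPM (-0.06, SE 0.06, adjusted p = 0.45). NAB2, described above, was 1 of the 2 higher genes.

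Myelin genes, which EGR2 controls in Schwann cells of mammals, gave 1 higher and 3 lower genes of 8 tested (median log2 difference -0.42), and 1 higher and 0 lower of 4 without those named only through the selected table. Of all genes tested 19.8% were higher and 21.8% lower, and of named genes 32.5% and 33.4%. The 3 lower genes are 37.5% of the list, near the share of named genes. MAG, an adhesion protein of the inner myelin layer, was lower (log2 difference -1.07, SE 0.10, edgeR adjusted p = 3.0e-05), and the myelin basic protein gene MBP (Nfu_g_1_012286) as well (-0.48, SE 0.13, adjusted p = 0.014). Another 2 MBP copies did not pass (-0.22 and -0.24, edgeR adjusted p = 0.19 and 0.28). CNP, a myelin enzyme, was higher by 0.35 (SE 0.09, adjusted p = 0.0086). Fish 11 was the lowest wild fish in 6 of the 8 genes, beside 26.4% of all genes tested, and its median log2 difference from the other wild fish was -0.40.

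Markers of other cells were set beside the EGR genes. TNNT3, the only skeletal muscle marker of 10 that could be found, was named only through the selected table. TNNT3 was at 19.2, 15.9, 12.2 and 9.01 CPM in wild fish 3, 5, 7 and 11, in the order of EGR1. In captive fish it was at 4.35 to 6.84 CPM (log2 difference 1.39, SE 0.25, edgeR adjusted p = 0.0015). GH1, the growth hormone of the pituitary and the only one of 10 pituitary markers found, was at 3173 and 1799 CPM in wild fish 3 and 5 but at 0.686 and 0.416 CPM in fish 7 and 11. In captive fish it was at 852 and 726 CPM in MZM_0410_124 and MZM_0410_127 and at 1.15 and 0.725 CPM in MZM_0410_125 and MZM_0410_126, so that brains rich and poor in GH1 were in both groups. Among the brains at or near 0 for GH1, EGR1 was at 184 and 119 CPM in wild fish and at 68.6 and 59.0 CPM in captive fish. EGR2 was at 16.0 and 8.80 against 2.14 and 1.85 CPM there, and EGR4 at 128 and 42.7 against 37.9 and 28.5 CPM. The wild brains rich in GH1, fish 3 and 5, were also the highest for EGR1, at 291 and 243 CPM. In the captive brains rich in GH1, EGR1 was at 55.6 and 64.7 CPM. A part of pituitary tissue in the EGR levels was not tested.

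Of all genes tested 19.8% were higher and 21.8% lower (32.5% and 33.4% of named genes). Of 11 genes of radial glia and astrocytes 6 were higher and 2 lower in wild fish (4 and 1 of 8 without those named only through the selected table). Their summed level was 5221 to 7127 CPM against 3667 to 5038 CPM. The largest part of that sum was S100B, at 3373 to 4566 and 1794 to 2749 CPM. SLC1A2 went the other way, at 186 ± 20.6 and 875 ± 133 CPM (SD, n = 4 each; log2 difference -2.24, SE 0.12). Of 17 genes of mature neurons, 3 were higher and 7 lower (2 and 3 of 12 without those named only through that table), with a summed level of 4325 to 4737 against 4804 to 5439 CPM. The largest part of that sum was SNAP25 (Nfu_g_1_017443), at 1502 ± 70.2 and 1555 ± 152 CPM. GAD2 was much lower in wild fish, at 23.5 ± 4.46 and 196 ± 37.3 CPM (log2 difference -3.06, SE 0.17). STMN2 (Nfu_g_1_014491), 1 of the 3 higher genes, differed by 0.35 (SE 0.08). Neuronal and glial transcripts were abundant in every library, as the label of whole brain states. CD74, the only marker found of 14 for microglia and macrophages, was at 6.03 to 17.3 and 5.94 to 7.41 CPM, and fish 11 was its lowest wild brain. IKZF1, named only through the selected table, was the only lymphocyte marker of 11 found, at 44.3 to 51.1 and 39.8 to 44.1 CPM. Of 5 erythrocyte genes 1 was higher and 3 were lower (a summed level from 104 CPM upward in wild brains, all below the 161 to 202 CPM of captive brains), and of 4 endothelial genes 1 was higher and 1 lower (86.2 to 111 against 84.5 to 101 CPM). The part of these markers in the EGR levels was not tested.

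RNA integrity was nearly tied to the groups. With the integrity number as a covariate in edgeR the log2 differences were 1.01 (SE 0.74) for EGR1, 3.23 (SE 1.15) for EGR2 and 1.24 (SE 1.04) for EGR4, with SEs about as large as the estimates for EGR1 and EGR4. The calls of immediate early regulators then dropped from 18 to 1, FOSL2 (log2 difference 2.11, SE 0.29, edgeR adjusted p = 0.028), and EGR3 had an adjusted p of 0.23. Removal of the trend on transcript length left the members at 1.73, 3.15 and 1.63. Named signalling genes kept their calls, but CREBBP (Nfu_g_1_022972) was then at -0.70 and CAMK2B (Nfu_g_1_022991) at -0.30. MKL2 (Nfu_g_1_022947), ELK3 and SOS1 rose to 0.51, 0.47 and 0.37. RASGRF1 (Nfu_g_1_003815) and CAMK2B (Nfu_g_1_017259) were slightly lower than before, at -1.95 and -0.99.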

How the data were processed

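Whole brains of 8 male fish were profiled by RNA-seq. For demultiplexing the authors used bcl2fastq 2.20.0.422, for alignment to the masked genome TopHat2 2.1.0, and for stranded counting featureCounts 1.6.5. They deposited whole counts, RPM and RPKM. The deposited RPM were the counts divided by column totals (largest deviation 5.0e-12), and dividing RPM by RPKM gave each transcript length. Gene names come from the supplementary tables of the study (7368 genes), some through a table selected in part on these libraries. That table alone names EGR1 and EGR3. Among other genes described, it alone also names CREBBP (Nfu_g_1_022972), CAMK2B (Nfu_g_1_022991), both MKL2 copies and ELK3. The same holds for SYN1, CDK5R1 (Nfu_g_1_019513), MAG, MBP (Nfu_g_1_012286) and S100B. Neither coordinates nor sequences are printed, because the reference used here is another assembly.

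Counts were TMM-scaled and tested in R 4.3.3 with edgeR 4.0.16 (quasi-likelihood F-test, at least 1 count in each of 8 libraries, Benjamini-Hochberg adjustment over all genes, threshold 0.05). The common biological coefficient of variation was 0.16. SEs of log2 differences were derived from the F statistic. The profile comparison used log2 CPM with a prior count of 2. Alternatives were DESeq2 1.42.0, limma 3.58.1 on log2(RPM + 0.5), other scalings and filters, the RNA integrity number as covariate, leaving out each fish and, added after seeing the data, removal of the trend on transcript length. The procedure was tested on simulated data. EGR1, EGR2 and EGR4 and all lists were chosen with earlier results of these data known. Named are the EGR and NAB genes, up to 4 called genes of smallest p per direction and the gene with the highest count of each list, the 5 nearest profiles per member and defining markers. FOSL2 and further copies of named genes were named after their values were seen. Some genes that this rule selects are not reported here.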

Additional observations from a re-analysis of the deposited data

Results flagged for a closer look

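A fish was looked at again where its gap to the nearest of the 3 others of its group divided by the whole range of the group exceeded the 95% critical value of Dixon for 4 values. This held in 4 of the 74 groups checked over 37 named genes, and chance gives about 1 in 20. EGR1, EGR2, EGR4 and EGR3 gave no such fish, and fish 11 did not pass this limit for EGR4 nor captive fish MZM_0410_124 for EGR2. JUND was at 54.5 CPM in captive fish MZM_0410_125, where the other captive fish were at 46.2 to 47.2 CPM. BHLHE40 was at 279 CPM in captive fish MZM_0410_124, beside 251 to 255 CPM. GADD45A was at 15.1 CPM in wild fish 7, beside 12.3 to 12.7 CPM. SIMC1, one of the nearest profiles of EGR2, was at 119 CPM in wild fish 5, beside 48.6 to 55.0 CPM.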

How the results depend on the processing

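The log2 differences of EGR1, EGR2 and EGR4 kept their direction under each setting run. Leaving out each fish in turn gave 1.56 to 1.95 for EGR1, 2.88 to 3.44 for EGR2, 1.52 to 1.98 for EGR4, 16 to 19 immediate early regulators higher and 0 to 0 lower, and 2933 to 3685 genes higher and 3845 to 4124 lower overall. With the RNA integrity number as covariate, 6 genes were higher and 40 lower, 1 immediate early regulator was higher, and EGR1 was at 1.01. In that fit NAB1 (0.66, SE 0.43), VGF (Nfu_g_1_022306, 0.43, SE 0.38) and SCG2 (0.37, SE 0.32) changed sign, with SEs near the size of the estimates. MKL2 (Nfu_g_1_022947) was left with no difference (-0.00, SE 0.18). The other 25 of 29 named genes with a test kept their sign in that fit but no longer passed. These were in the effector, signalling, target and myelin lists as well as in the immediate early list. Integrity was lower in every wild fish, so this fit has little left to separate. Of 29 named genes with a test, 3 had a changed call when a fish was left out. NAB1 passed with DESeq2 (adjusted p = 0.047) and with the length trend removed (0.045). Upper quartile scaling moved the share of calls that were higher from 47.6% to 57.1% and the median of all genes by 0.06. No paired analysis was possible because the fish numbers are not shared between the groups. With 4 fish per group, small differences may be missed, and depth limits EGR2 in captive fish.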
